A study of Rattus norvegicus with 6 samples.

Results

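A set of 10 genes of the RGS (regulator of G-protein signalling) family was followed on expression arrays of H9c2 myocytes, an established rat line that was derived from embryonic heart and serves as a model of cardiac muscle cells. They were Rgs2, Rgs3, Rgs4, Rgs5, Rgs10, Rgs12, Rgs14, Rgs16, Rgs17 and Rgs19. Of 13888 protein-coding genes that a probe's RefSeq mRNA accession tied to a rat symbol, 9 were of this list, each with 1 probe printed as 1 spot, and Rgs16 was matched by no probe and was not analysed here. The series held 3 control samples, kept at normal oxygen, and 3 samples put through hypoxia/reoxygenation (H/R), with RNA from each labelled with 1 dye (Cy3). H/R cells were without serum and glucose while they spent 1 h in 1% oxygen, 5% carbon dioxide and 94% nitrogen, then 3 h at normal oxygen. Stock cultures had 4500 mg/L glucose and 10% serum. The medium of the controls during the experiment is not stated, so low oxygen and loss of serum and glucose cannot be told apart. The labels name 1 cell line and no separate clones, and a line of their protocol that gives mouse cortex as the source of the RNA conflicts with every other label.

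RGS proteins end signals from G-protein-coupled receptors. They bind the active, GTP-loaded alpha subunit of a heterotrimeric G protein and speed up its hydrolysis of GTP, so that the subunit rejoins beta and gamma and both effector branches switch off. In heart and vascular muscle they limit signalling by adrenergic, angiotensin, endothelin and muscarinic receptors. The members fall into 3 structural subfamilies. The R4 proteins (Rgs2, Rgs3, Rgs4, Rgs5 and Rgs16) are mostly little more than the RGS domain. The R12 proteins are Rgs10, a small one, and Rgs12 and Rgs14, large scaffolds that also bind Ras-family proteins and inactive alpha subunits. The RZ proteins are Rgs17 and Rgs19.

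The design text speaks of independent experiments, 3 to a group, but replicates 2 and 3 of either group were read at the same slide position in different scans. Such a pair shared 36 spots with an uneven-background mark, in control and in H/R alike, where any other pair of files shared at most 1. The median difference between their spots was 0.0228 log2 units for the control pair and 0.0231 for the H/R pair, while other pairs within a group differed by 0.123 to 0.158. They differed by less than the noise between arrays and were averaged, so replicate 1 is called array 1 and replicates 2 and 3 together array 2 (2 arrays in each group). Because of this the p-values rest on the spread of 2 arrays, which may be partly technical. The share of non-control spots scored well above background ran from 58.4% to 71.1% over the files, 0 spots were saturated, and precision is limited by the number of arrays. Of 14 muscle markers on the array 13 could be tested, and Myog, Myod1, Actc1 and Des were well above background in every file. Of these 13, 3 rose (Tnnt2 2.18-fold, Myh6 1.98-fold, and Chrna1, which was above background only in H/R files) and 1 fell (Myod1, to 0.360 of control, limma adjusted p = 0.00814). Chrna1 thus entered the test only through the group where it is high. The summed level of all 14 relative to the array's 75th percentile was 40.6 to 43.8 in control and 42.7 to 47.9 in H/R files. Des was not called and differed between the H/R arrays, with a log2 level of -0.47 on array 1 and 1.46 on array 2. Of 4 fibroblast markers 2 rose, Lum and Dcn, and the sum of all 4 was 0.222 to 0.247 in control and 0.603 to 0.709 in H/R files. Pdgfra, not called, also differed between the H/R arrays (-6.05 on array 1 and -4.45 on array 2). Of 5 endothelial markers Pecam1, Cdh5 and Erg were well above background in no file, Cldn5 in 1 control and 3 H/R files and Tek in all, and Tek rose 2.16-fold (sum 0.0574 to 0.0617 and 0.109 to 0.138). Of the leukocyte markers Ptprc, Adgre1 and Itgam were well above background in no file and Cd68, Csf1r, Cd3e and Fcer1g in all, with 0 of these 4 called by limma. The part of these markers in the results was not tested.

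After H/R, Rgs14 and Rgs17 fell to about the same fraction of their control signal, Rgs2 rose by a smaller amount, and Rgs3, Rgs10, Rgs12 and Rgs19 did not pass the test. In bulk RNA, fewer cells that express a gene and less of its RNA per cell cannot be told apart. The stretches upstream of the start sites of the 3 genes that passed are shown first, because both directions of change are among them. They are the 250 bases before the RefSeq start site on the GRCr8 assembly, written along the gene's strand, at chr17:9268234-9268483 (minus strand) for Rgs14, chr1:44729946-44730195 (minus strand) for Rgs17 and chr13:58352667-58352916 (minus strand) for Rgs2. Capitals mark matches, on either strand, to the GC box GGGCGG, the ACGTG core of the hypoxia response element, the first 5 letters (TGACG) of the cyclic AMP response element and the TGANTCA site of AP-1.
Rgs14: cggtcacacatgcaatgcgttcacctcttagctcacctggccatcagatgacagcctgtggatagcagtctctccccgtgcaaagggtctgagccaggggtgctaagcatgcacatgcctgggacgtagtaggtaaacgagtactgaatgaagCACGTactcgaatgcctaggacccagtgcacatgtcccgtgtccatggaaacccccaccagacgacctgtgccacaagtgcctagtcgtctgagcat
Rgs17: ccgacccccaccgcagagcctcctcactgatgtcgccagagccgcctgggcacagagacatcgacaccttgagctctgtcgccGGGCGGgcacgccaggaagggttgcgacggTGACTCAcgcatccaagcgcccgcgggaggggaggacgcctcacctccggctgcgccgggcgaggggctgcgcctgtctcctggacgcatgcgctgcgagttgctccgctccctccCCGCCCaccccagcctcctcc
Rgs2: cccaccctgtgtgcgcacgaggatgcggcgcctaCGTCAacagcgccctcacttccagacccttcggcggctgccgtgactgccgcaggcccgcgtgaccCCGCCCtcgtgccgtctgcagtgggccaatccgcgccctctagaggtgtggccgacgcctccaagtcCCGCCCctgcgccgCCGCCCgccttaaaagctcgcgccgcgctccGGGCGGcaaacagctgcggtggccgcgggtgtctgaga
The Rgs2 stretch held 4 GC boxes and 1 TGACG match, that of Rgs17 held 2 GC boxes and 1 AP-1 match, and that of Rgs14 held 1 ACGTG match and none of the other 3 motifs. The Rgs2 and Rgs17 stretches were 72.4% and 72.0% G or C with 33 and 26 CpG pairs, and the Rgs14 stretch was 55.6% with 10, against medians of 51.6% and 5 over 33360 promoters of the same length. Among the 10 genes, all of which had a promoter in the table, a GC box was found in 7, against 30.5% of all promoters. ACGTG was found in 2 (Rgs14 and Rgs19; 16.6% of all), TGACG in 3 (Rgs2, Rgs3 and Rgs4; 18.2%), TGANTCA in 2 (Rgs12 and Rgs17; 6.35%) and the TATA box TATAAA in 2 (Rgs3 and Rgs4; 12.9%). The CCAAT box CCAAT was found in 3 (34.0% of all) and the NF-kB site in 1, Rgs14 (3.55%). The whole cyclic AMP response element TGACGTCA (1.59%) and the CArG box of the serum response element (499 of the 33360) were in 0 of the 10. A match describes the letters and does not show a bound site, and the pair that fell together shared none of the motifs searched.

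Of the 7 members tested, 1 rose and 2 fell (limma, Benjamini-Hochberg adjusted over 15899 probes, threshold 0.05), and their median change was -0.20 on the log2 scale. Over all 10001 protein-coding genes tested 25.8% were called, 16.2% higher and 9.62% lower in H/R, with a median of 0.07. Over all probes, non-coding ones included, 23.7% were called, 14.8% higher and 8.87% lower. The 3 calls are 42.9% of the members tested, too few genes for a difference from the background to be read from it. In all 7 the H/R arrays lay to one side of the control arrays, as they did in 69.6% of all coding genes tested. The counts rest on signals scaled to each array's 75th percentile. Scaling to the median instead shifted every change down, so that the median over all probes went from 0.07 to -0.059, and the calls over all probes from 2358 higher and 1411 lower to 1566 higher and 2253 lower. Among the members it gave 0 higher and 3 lower.

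**Figure D1:**
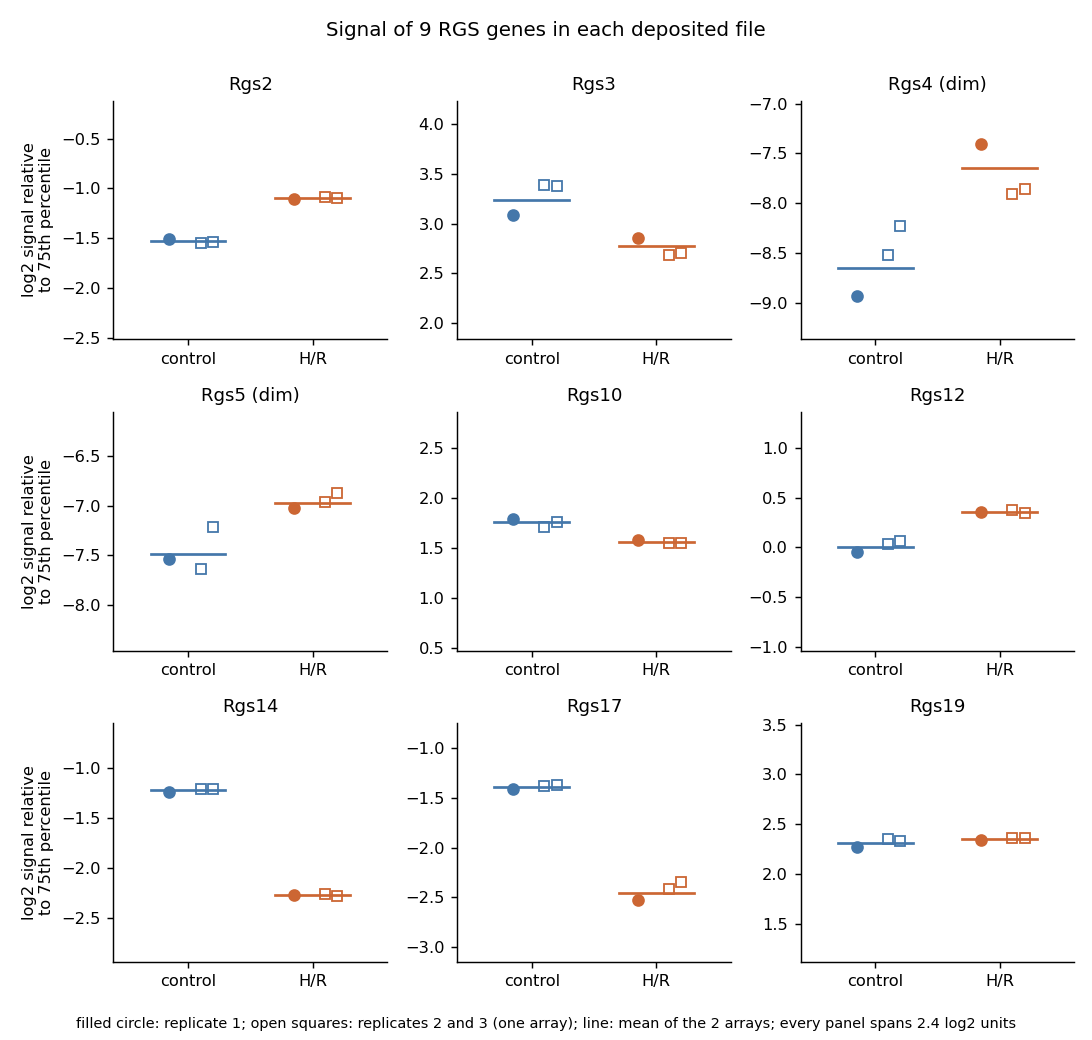
Log2 signal, relative to the 75th percentile of its array, of the 9 RGS genes with a probe in each of the 3 control and 3 H/R files. Filled circles are replicate 1, open squares replicates 2 and 3, which were averaged as 1 array, and lines are means of the 2 arrays; Rgs14 and Rgs17 sit about 1 unit lower in H/R, Rgs2 is higher, and Rgs4 and Rgs5 are near background.

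The values below are log2 signals relative to the array's 75th percentile, for replicates 1, 2 and 3 in order. They compare files for 1 gene and not genes with each other, since each probe binds with its own strength. In the R12 subfamily, Rgs14, which joins G-protein and Ras/ERK signalling, measured -1.23, -1.21 and -1.21 in control and -2.28, -2.26 and -2.28 in H/R files. Each H/R file lay below each control file, and the files of a group differed by far less than the groups. Rgs14 fell by 1.05 ± 0.09 (SE from limma's moderated variance, as for all changes that follow; n = 2 arrays in each group), to 0.482 of the control signal with a 95% interval of 0.410 to 0.567 (limma adjusted p = 0.00416). Rgs10, a regulator of Gi signalling best known in immune cells and microglia, measured 1.79, 1.71 and 1.76 in control and 1.58, 1.55 and 1.55 in H/R files. The groups did not overlap, and the difference of -0.20 ± 0.09 did not pass (interval -0.44 to 0.036, limma adjusted p = 0.173). Rgs12, the other large scaffold, measured -0.048, 0.037 and 0.066 in control and 0.35, 0.37 and 0.35 in H/R files. Its H/R files were all higher, and the difference of 0.35 ± 0.09 (1.28-fold) narrowly missed the threshold (interval 0.11 to 0.60, limma adjusted p = 0.0563).

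In the RZ subfamily, Rgs17, which acts on Gz and Gi alpha subunits, measured -1.41, -1.38 and -1.37 in control and -2.52, -2.41 and -2.35 in H/R files. All H/R files lay below all control files, with array 1 the lowest. Rgs17 fell by 1.06 ± 0.10, to 0.480 of the control signal with an interval of 0.400 to 0.575 (limma adjusted p = 0.00519). Rgs19, also known as GAIP, which acts on Gi subunits and sits on vesicle membranes, measured 2.27, 2.35 and 2.34 in control and 2.34, 2.36 and 2.36 in H/R files. The difference of 0.044 ± 0.09 did not pass, and its interval of -0.19 to 0.28 leaves room for a change of at most 1.22-fold up or to 0.874 of the control signal (limma adjusted p = 0.748). Its sign turned under median scaling (-0.083), after normexp background correction (-0.083) and with the percentile taken over all spots (-0.0039).

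In the R4 subfamily, Rgs2, which acts mainly on the Gq alpha subunit that angiotensin, endothelin and alpha-1 adrenergic receptors use, measured -1.51, -1.55 and -1.54 in control and -1.10, -1.09 and -1.10 in H/R files. The files of a group lay close together and the groups stood apart. Rgs2 rose by 0.43 ± 0.09, which is 1.35-fold with an interval of 1.15-fold to 1.58-fold (limma adjusted p = 0.0309). The call was the least firm of the 3, lost under median scaling (0.30, adjusted p = 0.0976), with the percentile taken over all spots (0.38, adjusted p = 0.0517) and whenever 1 array was left out (adjusted p 0.0825 to 0.146). Rgs3, which acts on Gi and Gq subunits, measured 3.09, 3.39 and 3.38 in control and 2.86, 2.68 and 2.71 in H/R files. Each H/R file was lower than each control file, by 0.23 between the arrays numbered 1 and by 0.69 between the arrays numbered 2. The difference of -0.46 ± 0.14 (0.727 of the control signal) did not pass (limma adjusted p = 0.0747, interval 0.565 to 0.934).

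Rgs4 and Rgs5, neighbouring genes known from heart and, for Rgs5, from pericytes, were at the limit of the arrays. Rgs4 was not well above background in any file, with processed signals of 5.02 to 6.94 units in control and 10.4 to 11.4 units in H/R files, so no fold is given. Rgs5 measured 10.5 to 14.0 units in control and 13.6, 20.6 and 22.5 units in H/R files, and was well above background only in H/R replicates 2 and 3, the scans of array 2. These units are not scaled, and 71.1% and 69.4% of all non-control spots in those scans were well above background, against 60.8% in H/R replicate 1. Relative to the 75th percentile Rgs5 measured -7.54, -7.64 and -7.22 in control and -7.02, -6.96 and -6.87 in H/R files. No fold is given for it either. Neither was tested, and in a fit without the filter on dim probes neither passed (limma adjusted p = 0.15 for Rgs4 and 0.115 for Rgs5). All 7 mural cell markers on the array, Kcnj8, Pdgfrb, Notch3, Cspg4, Abcc9, Cnn1 and Mcam, were well above background in every file. Pdgfrb rose by 0.51 (limma adjusted p = 0.0338), Abcc9 fell by 0.52 (adjusted p = 0.0201) and the other 5 did not pass. Under median scaling these markers gave 0 higher and 1 lower.

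**Figure D2:**
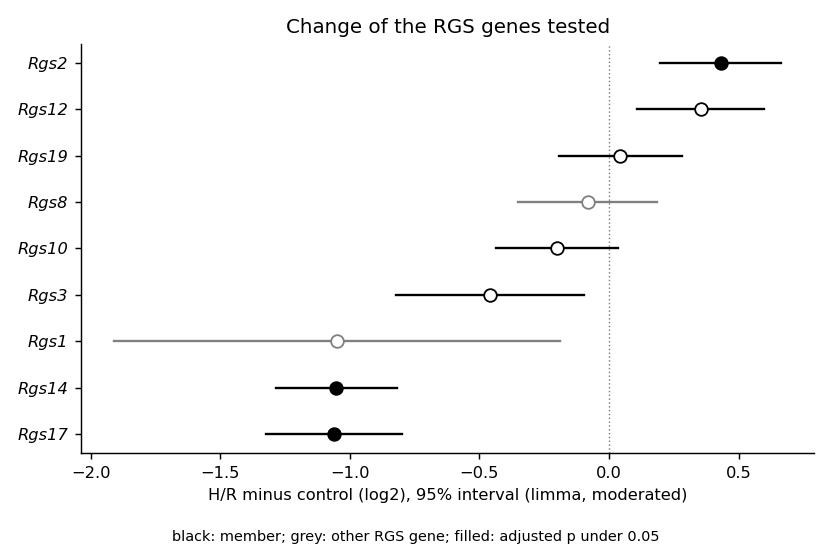
Difference between H/R and control, on the log2 scale, of the 7 members tested and 2 other RGS genes, with 95% intervals from limma. Filled points passed an adjusted p of 0.05: Rgs14 and Rgs17 lie at -1.05 and -1.06 and Rgs2 at 0.43, and the intervals of Rgs8, Rgs10 and Rgs19 span 0.

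Of 11 other RGS genes listed, 6 had a probe and 2 were tested, and 0 passed by limma, with 1 at an unadjusted p under 0.05. Rgs1, a regulator of chemokine receptor signalling in leukocytes, differed by -1.05 ± 0.33 with an interval of -1.91 to -0.19 (limma adjusted p = 0.0821). The size was close to the falls of Rgs14 and Rgs17 and the spread wider. With files left out it ranged from -1.51 without control replicates 2 and 3, where it passed (limma adjusted p = 0.0242), to -0.59 without control replicate 1 (adjusted p = 0.14). It also passed under median scaling (-1.18, adjusted p = 0.0331) and with the 6 files as separate samples (-0.83, adjusted p = 0.0457), and after normexp correction it was -0.029 (adjusted p = 0.973). Rgs8, which acts on Gi subunits and is best known in brain, differed by -0.083 ± 0.10 (adjusted p = 0.583), and after normexp correction by 0.91.

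By the distance of their centred signals over the 4 arrays, the genes of 10000 compared whose pattern lay nearest to Rgs2, the largest rise, were Epha4, Lgmn and Mfsd6, at a root mean square distance of 0.0060 to 0.010 on the log2 scale. They had changes of 0.44, 0.42 and 0.42. Rgs17 had the largest fitted fall as reported, by a margin over Rgs14 far inside their SEs, and with the 6 files as separate samples Rgs14 fell further (-1.06 against -1.04). Among the genes near Rgs17 were Gdpd5 and Synj2 at 0.026 and 0.029, both with changes of -1.05. With 4 arrays such a distance says little beyond the size of the group difference.

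The other lists cover the rest of the G-protein cycle. Over all coding genes tested 25.8% were called, and limma called 14.3% of the alpha subunit genes tested. It called 22.2% of the beta and gamma subunit genes and 33.3% of the effector genes, lists too small for a difference to be read. Of 7 alpha subunit genes tested, 1 rose and 0 fell. This was Gna14, an alpha subunit of the Gq class, which rose 4.72-fold (2.24 ± 0.13 on the log2 scale, limma adjusted p = 0.00207). The other 6, Gnai2, Gnai3 and Gnao1 of the Gi class, Gnaq of the Gq class, Gna13 and the stimulatory Gnas, did not pass (differences between -0.30 and 0.22), except that Gnaq passed under quantile normalization (-0.44, adjusted p = 0.0424). Of 9 beta and gamma subunit genes 1 passed as higher, Gngt2 (adjusted p = 0.0201), and 1 fell, Gng5 (by 0.47 ± 0.10, adjusted p = 0.0364). Gngt2 was well above background in 2 control and 3 H/R files, so it entered the test only through the group where it is high. Under median scaling this list gave 1 higher and 3 lower. Of 6 effector genes 2 rose and 0 fell. They were Adcy2, which encodes an adenylyl cyclase that beta-gamma subunits stimulate (1.44-fold, adjusted p = 0.0257), and Plcb4, which encodes a phospholipase C that Gq activates (1.33-fold, adjusted p = 0.0353). Under median scaling the list gave 0 higher and 1 lower, with Adcy2 at 0.40 (adjusted p = 0.0653) and Plcb4 at 0.28 (adjusted p = 0.124), and Plcb4 also missed with the percentile over all spots (adjusted p = 0.0632).

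Among receptors of heart and vascular muscle 25 genes were tested, of which 4 passed as higher and 2 as lower (median 0.05), against 4 and 4 under median scaling. As reported, 24% of these receptor genes were called, against 25.8% of all coding genes tested. Adora2b, which encodes a low-affinity adenosine receptor, rose 2.04-fold (adjusted p = 0.00449), Lpar1, which encodes a lysophosphatidic acid receptor, 1.87-fold (adjusted p = 0.00655) and Adra1b, which encodes an alpha-1 adrenergic receptor coupled to Gq, 1.58-fold (adjusted p = 0.0113). The vasopressin receptor gene Avpr1a fell by 0.71 ± 0.11 (adjusted p = 0.0147). The other genes called were Adra2c and Chrm3. Adra2c was well above background in 0 control and 3 H/R files, so it too entered the test only through the group where it is high, at least 1.90-fold higher in H/R (adjusted p = 0.0313). Its call was lost under quantile normalization (adjusted p = 0.0658) and in the deposited table (adjusted p = 0.076). Chrm3, which encodes a muscarinic receptor coupled to Gq, fell by 0.58 (adjusted p = 0.0166).

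Of 11 genes tested that encode other proteins with an RGS homology domain, 0 rose and 1 fell (9.09% called, against 25.8% of all coding genes tested). This was Grk6, which encodes a kinase that marks active receptors for shut-off, and it fell by 0.90 ± 0.09 (adjusted p = 0.00619); its other 2 probes differed by -1.09 (adjusted p = 0.00605) and -0.68 (adjusted p = 0.262). Of 8 partners and other regulators 1 rose and 1 fell (25% called). Gpsm1, which encodes a GoLoco protein that holds Gi subunits in the GDP-bound state, as Rgs12 and Rgs14 can, rose 1.98-fold (adjusted p = 0.00659), and Ric8a, which encodes a chaperone and exchange factor of alpha subunits, fell by 0.40 ± 0.09 (adjusted p = 0.0388). Rgs4, Rgs5 and Rgs16 proteins are known to be degraded through an N-terminal cysteine that is oxidised in an oxygen-dependent way, then arginylated. Of 7 genes listed for that route, 3 (Ubr1, Ubr2 and Ubr4) were matched by no probe. Of the 4 tested, 0 rose and 1 fell (25% called, against 25.8% of all coding genes tested). Ate1, which encodes the arginyl transferase, fell by 0.52 ± 0.09 (adjusted p = 0.0216). Ado, which encodes the cysteine oxidase, differed by -0.32 ± 0.09 (adjusted p = 0.0641), and the aminopeptidase genes Metap1 and Metap2 by -0.33 and -0.13 (adjusted p = 0.0919 and 0.368). Under median scaling 3 of the 4 fell, with Ado at -0.44 (adjusted p = 0.0352) and Metap1 at -0.46 (adjusted p = 0.0457). That scaling shifted every change down, and over all 15899 probes it gave 2253 lower and 1566 higher. Under quantile normalization 2 of the 4 fell, with Ado at -0.37 (adjusted p = 0.0408), against 1707 lower and 1987 higher over all probes. Protein levels were not measured. Leaving out any 1 array kept the calls of Gna14, Adora2b, Lpar1, Grk6 and Gpsm1. The calls of Gng5, Adcy2, Plcb4, Ric8a and Ate1 were lost whichever array was left out, that of Gngt2 without array 1 of either group, H/R array 2 or control replicate 2 alone, and those of Adra1b and Avpr1a without either H/R array, and those of Chrm3 and Adra2c without either H/R array or control array 1.

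**Figure D3:**
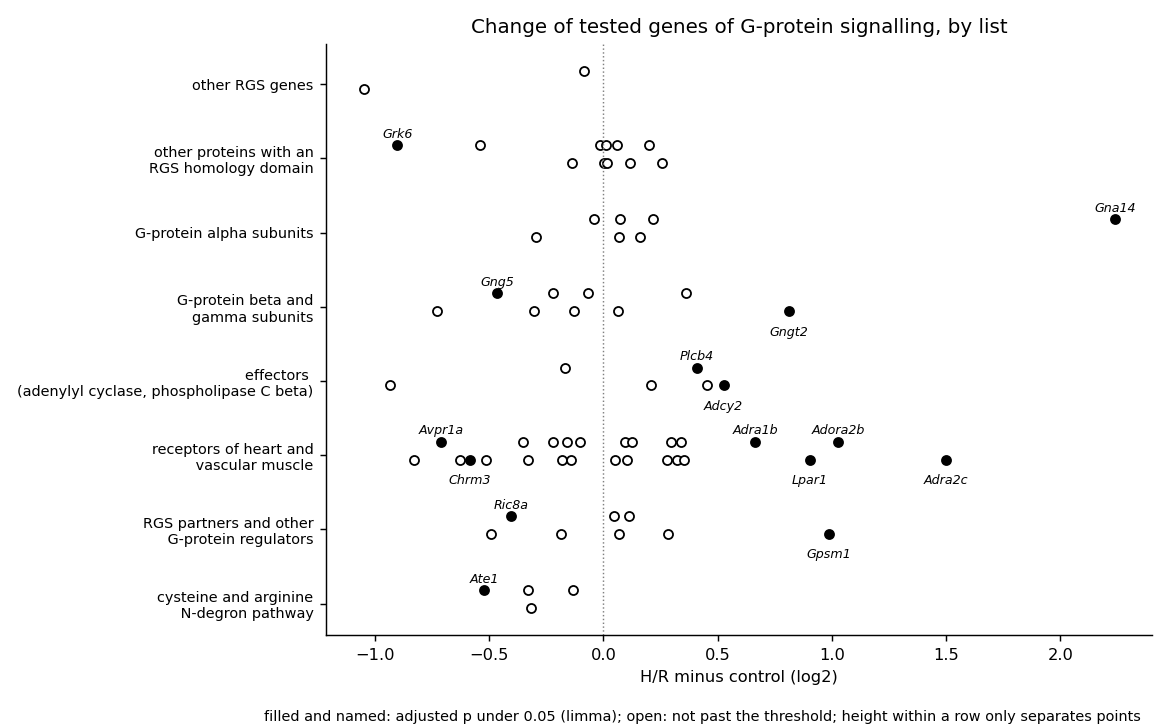
Difference between H/R and control, on the log2 scale, of each tested gene of 8 lists of the G-protein cycle, 1 row per list. Filled, named points passed an adjusted p of 0.05 in limma; Gna14, at 2.24, lies farthest from 0.

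**Figure D4:**
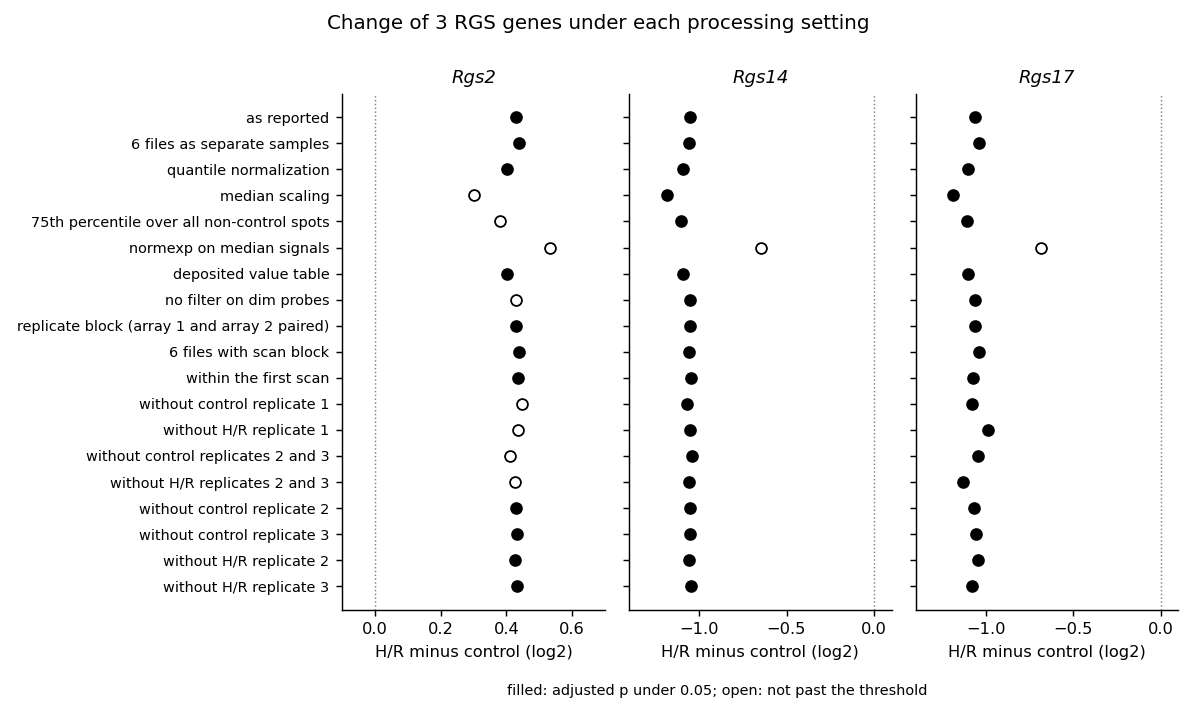
Difference between H/R and control, on the log2 scale, of Rgs2, Rgs14 and Rgs17 as reported and under 18 other settings of processing or choice of files. Filled points passed an adjusted p of 0.05; Rgs14 and Rgs17 passed in 17 of 18 and Rgs2 in 10 of 18, and none passed after normexp correction.

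Across these 18 settings the change of Rgs14 lay between -1.18 and -0.65, that of Rgs17 between -1.19 and -0.68, and that of Rgs2 between 0.30 and 0.53. Leaving out either array of either group kept Rgs14 between -1.07 and -1.04 and Rgs17 between -1.13 and -0.99, with adjusted p at most 0.0361 and 0.0387. All arrays lay on 1 slide, each at its own position, and the effects of position and group cannot be told apart.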

How the data were processed

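Total RNA, freed of ribosomal RNA and labelled by random priming per the labels' protocols, was hybridised to 6 Agilent arrays or scans in 1 colour. The deposited intensity values were, per the file headers, made by Agilent Feature Extraction 11.0.1.1, with background and spatial trend removed inside an array and no scaling across arrays. Its deposited flags (other, 0 or 1) mark outlier and well-above-background spots. A log2 table of 16841 probes was also deposited (medians 9.18 to 9.19, r of 0.9998 to 0.9999 with scanner values across probes); its scale is log2 without centring of genes, and how it was normalized is unknown here.

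After removal of control and outlier spots, each probe's spots were averaged as log2 intensity, less the array's 75th percentile over 24578 probes usable in every file, a population of probes settled after the calls of a first choice (all non-control spots, kept as an alternative) had been seen. Probes well above background in all 3 files of a group (15899) entered limma 3.58.1 in R 4.3.3 (lmFit, eBayes, two-sided, Benjamini-Hochberg, threshold 0.05; 2 residual and 2.86 prior degrees of freedom). A gene is its probe of highest mean signal. Symbols and promoters are RefSeq's for GRCr8. Python 3.11.15, pandas 2.3.3 and matplotlib 3.10.9 were used. The fit was also run on simulated data with 200 of 15899 probes changed. It recovered 0% of changes of 0.5 log2 units, 50% of 1, 94% of 2 and 100% of 3. Far more probes were called in the real data, so these shares need not hold there.

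Members and lists were chosen with earlier results of these data known. All members are named, and of other lists the up to 4 called genes with the smallest adjusted p, besides all tested RGS and N-degron genes; the other alpha subunits, Adra2c, Chrm3 and the markers were picked after their values were seen. A gene near Rgs17 in pattern and a leukocyte marker are not reported here.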

Additional observations from a re-analysis of the deposited data

How the results depend on the processing

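The members gave 3 calls as reported, 6 with the 6 files as separate samples or with the scan as a block as well, and 0 after normexp background correction (limma; 3 at an unadjusted p under 0.05), a setting chosen after seeing the data, as was the percentile over all spots. All probes gave 3769, 8309, 7423 and 0 calls in the same order (2044 unadjusted after normexp), and 594 without the filter on dim probes. Leaving out files gave 2 to 3 members and 1008 to 3778 probes, 2040 without control replicate 1, 1091 without H/R replicate 1 and 1008 without H/R replicates 2 and 3; where an arm is left with 1 array, that array is assumed to vary like the other group. Counting both scans of an array as samples treats 1 array as 2.

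Rgs2 did not pass under median scaling (0.30), with the percentile over all spots (0.38), after normexp (0.53) and without the filter (0.43), and lay between 0.41 and 0.45 with files left out. Rgs14 (-0.65) and Rgs17 (-0.68) did not pass after normexp. Rgs3 passed with 6 files, with or without the scan block (-0.54), and under median scaling (-0.59), and lay between -0.61 and -0.31 with files left out. Rgs10 (-0.20) and Rgs12 (0.34) passed with 6 files, with or without the scan block. Rgs19 turned to -0.0039 with the percentile over all spots and to -0.083 under median scaling. It also turned to -0.083 after normexp, where Rgs8 turned to 0.91 and Ado to 0.16. Of the alpha subunits, Gnao1 turned to -0.012 and Gna13 to -0.10 under quantile normalization, and to -0.012 and -0.11 in the deposited table. Gnai2 turned to -0.0054 under quantile normalization. Under median scaling Gnai2 turned to -0.056 and Gna13 to -0.060, after normexp Gnaq turned to 0.88, and Gnai2 lay between -0.051 and 0.19 with files left out. The median change of all probes was 0.07 as reported and 0.33 after normexp. The cause of these shifts was not tested.

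With array 1 and array 2 paired as a replicate block, the 3 members kept their calls (adjusted p of Rgs2 0.0466) and all probes gave 3886; Plcb4 (adjusted p = 0.0517) and Ric8a (0.0561) did not pass. Same-numbered arrays deviated together at r = 0.153 over probes, with only 2 numbers. Averaging the probes of a gene was not run, since each matched member has 1.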
